A study of Mus musculus with 12 samples.

Results

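The Egr, Klf and Myc immediate early regulators are 10 nuclear proteins, encoded by Egr1, Egr2, Egr3, Klf2, Klf4, Klf6, Klf10, Nr4a1, Ier2 and Myc. They were taken by symbol from the 18227 genes of the count table, and all 10 were among the 15647 genes that passed the filter on low counts. RNA came from cells labelled as hepatocytes, of wild-type male BALB/C mice aged 8 weeks, in 12 libraries. Mice received an antibody against Gr1, an antigen of granulocytes, or an isotype antibody, at 200 µg in 100 µl per injection into the abdomen. A second dose followed 2 days later with a 70% hepatectomy, which all animals of the study underwent, and the remnant liver was perfused with collagenase at post-operative day (POD) 2 or POD1. The groups were anti-Gr1 POD2, isotype POD2, anti-Gr1 POD1 and isotype POD1, with 3 libraries each. The stated question was how loss of granulocytic myeloid-derived suppressor cells bears on regenerating hepatocytes. No group had an unoperated or an antibody-free liver, so the values compare antibodies and days after the same operation. Cells were pelleted at low speed and not sorted.

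Immediate early genes are transcribed within minutes of a growth or stress signal, without new protein synthesis, largely through serum response factor (SRF) with ternary complex factors that ERK kinases phosphorylate. Partial hepatectomy is known to set off such a wave in the remnant liver within hours, before hepatocytes enter the cell cycle. Egr and Klf proteins carry zinc fingers that bind GC-rich DNA, Nr4a1 is an orphan nuclear receptor, Ier2 is a short-lived nuclear protein, and Myc dimerizes with Max to drive ribosome and nucleotide synthesis. Klf2 and Klf4 are also stably expressed by endothelium under laminar flow, and Klf4 is a gene of monocytes and macrophages. Enzymatic dissociation of tissue is known to induce immediate early and heat shock genes too.

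The libraries held 13189392 to 15822043 counts. Of the 66 pairs of libraries, 3 were nearly identical, with a chi-square per gene of 1.62 (isotype POD2 replicates 1 and 2), 5.27 (anti-Gr1 POD2 replicates 1 and 2) and 3.51 (replicate 3 of anti-Gr1 POD2 and replicate 3 of anti-Gr1 POD1, which carry different days), against 58.3 to 875 in the other 63. The near-identical libraries of one group were summed into 1 sample, which gave n = 2 at POD2 and n = 3 at POD1, and results are also given without the cross-day pair. That setting leaves n = 1 in anti-Gr1 POD2 and n = 2 in anti-Gr1 POD1. Its antibody calls at POD2, kept or lost, thus rest on 1 anti-Gr1 sample and are no replicated check. Ly6g, the gene of the antibody's target, went against the labels, at 24.2 to 54.8 CPM (counts scaled to a common library total) in the 6 libraries labelled anti-Gr1 and 0.246 to 1.97 CPM in the 6 isotype libraries, so each direction below rests on those labels. Pancreatic acinar markers took 0.0130% to 26.7% of a library's counts. The 14 hepatocyte markers were detected in every library and took 0.561% to 13.6% of the counts. In anti-Gr1 POD1 replicates 1 and 2 they took 0.561% and 1.188%, less than 14 neutrophil markers, at 1.144% and 1.505%. They took more than the neutrophil markers in each other library. The labels do not say that the replicates are different animals, so the p-values cover the scatter among these samples alone, which could be technical.

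RefSeq promoter entries (GRCm38.p6) were matched for 5 of the 10 genes, Egr2, Klf2, Klf4, Klf6 and Nr4a1. Windows of up to 250 bases before a transcription start, without annotated exon bases, are shown for the 4 whose RNA was lower in isotype POD2 than in isotype POD1. Capitals mark motif matches on either strand.
Klf2 promoter, chr8:72318812-72319032, plus strand: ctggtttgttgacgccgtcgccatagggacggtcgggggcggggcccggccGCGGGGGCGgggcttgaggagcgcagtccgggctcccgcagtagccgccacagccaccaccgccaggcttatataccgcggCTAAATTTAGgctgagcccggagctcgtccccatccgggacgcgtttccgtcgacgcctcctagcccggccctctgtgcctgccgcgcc
Klf4 promoter, chr4:55532476-55532725, minus strand: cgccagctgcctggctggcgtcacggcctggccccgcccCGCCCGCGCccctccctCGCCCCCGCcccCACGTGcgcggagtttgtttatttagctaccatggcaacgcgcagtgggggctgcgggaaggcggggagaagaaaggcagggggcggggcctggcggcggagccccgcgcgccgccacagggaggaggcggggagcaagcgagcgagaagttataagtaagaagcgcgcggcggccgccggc
Egr2 promoter, chr10:67537619-67537868, plus strand: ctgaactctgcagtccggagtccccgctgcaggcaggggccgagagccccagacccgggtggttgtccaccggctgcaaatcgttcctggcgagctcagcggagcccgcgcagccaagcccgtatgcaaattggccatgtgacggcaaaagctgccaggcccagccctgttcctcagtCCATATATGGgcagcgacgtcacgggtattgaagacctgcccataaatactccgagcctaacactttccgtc
Nr4a1 promoter, chr15:101266596-101266845, plus strand: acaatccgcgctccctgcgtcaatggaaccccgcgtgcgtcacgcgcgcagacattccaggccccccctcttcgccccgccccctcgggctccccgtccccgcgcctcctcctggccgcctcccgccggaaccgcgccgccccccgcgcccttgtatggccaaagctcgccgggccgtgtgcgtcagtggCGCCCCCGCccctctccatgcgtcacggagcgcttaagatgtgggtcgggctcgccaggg
The Klf2 window held an MEF2 element, CTAAATTTAG, 118 to 109 bases before the start, and a match to the Egr motif GCGNGGGCG. MEF2 elements bind the factors that ERK5 activates. An MEF2 element was in 0.508% of the 32851 promoter windows of that length, and GCGNGGGCG in 4.70%. The printed Egr2 window held a CArG box, the SRF site, with the letters CCATATATGG, 72 to 63 bases before the start, and 1.47% of windows held one. Egr2 had entries for other start sites too, so this window was picked among several. The window from 67537316 held another CArG box, CCTTTTTTGG. The window from 67535249 held no CArG box but CACGTG, in part over exon bases, and the remaining windows overlapped the printed one. The Klf4 window held GCGNGGGCG 2 times on its minus strand, as CGCCCGCGC and CGCCCCCGC, and the Myc and Max E box CACGTG, which 6.02% of windows held. The Nr4a1 window held GCGNGGGCG on its minus strand, as CGCCCCCGC, and the Klf6 window, not printed, held CACGTG. The cAMP response element TGACGTCA, in 1.55% of windows, was in none of the windows of these 5 genes. A match here describes letters and was not tested as a binding site.

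**Figure D1:**
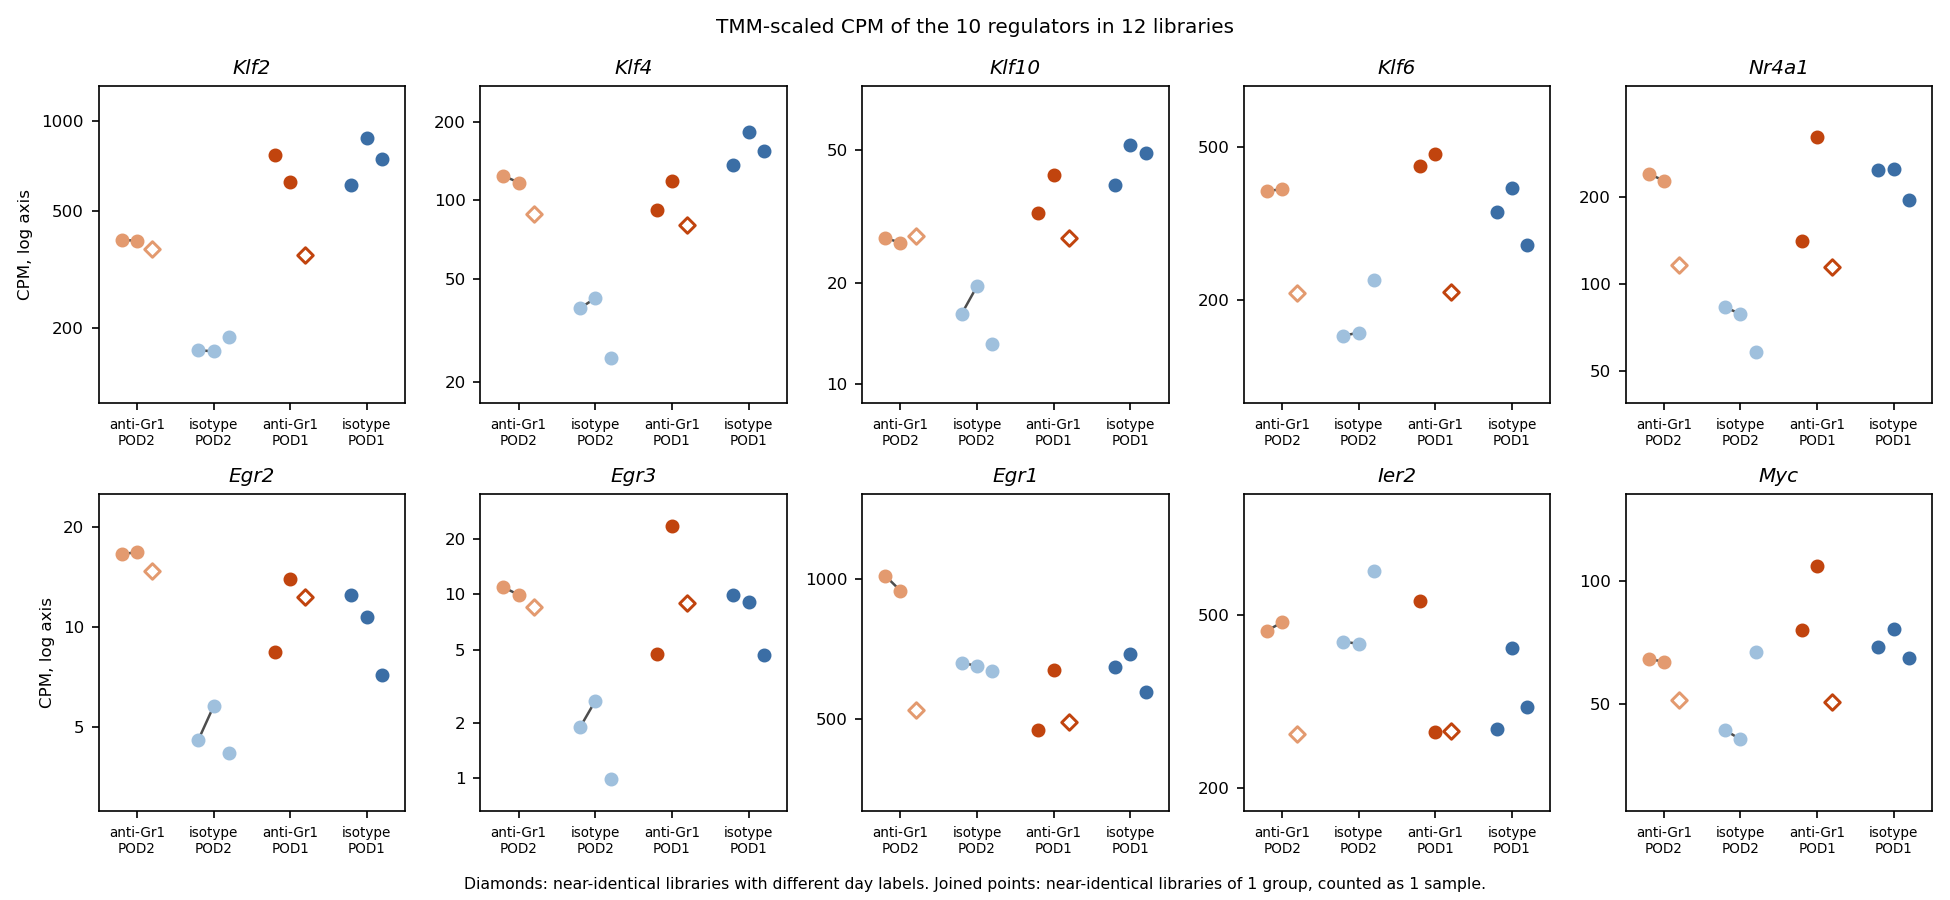
Each panel plots one regulator in 12 libraries, as TMM-scaled CPM on a log axis, by antibody and day, with diamonds for the cross-day pair and joined points for near-identical libraries of one group. Klf2, Klf4, Klf10, Nr4a1, Egr2 and Egr3 lay lowest in the isotype POD2 libraries, with Klf2 at 167 to 187 CPM there, while Egr1, Ier2, Klf6 and Myc did not separate that group from the rest.

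Levels of different genes were compared as CPM per kilobase of exon. In isotype POD2 the order ran Ier2, at 349 ± 92.4 (SD, n = 2), Egr1 at 144 ± 3.60, Klf2 at 96.1 ± 7.33, Klf6 at 44.1 ± 9.99, Myc at 20.03 ± 6.47, Nr4a1 at 19.7 ± 4.61, Klf4 at 10.7 ± 3.57, Klf10 at 3.72 ± 0.804, Egr2 at 1.38 ± 0.206 and Egr3 at 0.368 ± 0.204 CPM per kilobase. Samples of the first 4 did not overlap with their neighbours in that order, and those of Myc and Nr4a1 did. In isotype POD1 Klf2 came first at 404 ± 72.5 CPM per kilobase (n = 3), above Ier2 at 219 ± 50.6, without overlap. In anti-Gr1 POD2 Ier2 and Klf2 overlapped, at 242 ± 94.8 and 208 ± 9.56 CPM per kilobase (n = 2), and in anti-Gr1 POD1 Klf2 and Ier2 overlapped, at 316 ± 115 and 236 ± 101 (n = 3). Egr3 was last in all 4 groups, and its counts per library were 8 to 455.

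At POD2, 5 of the 10 regulators were higher in anti-Gr1, as labelled, than in isotype and 0 were lower, in edgeR's quasi-likelihood test at an adjusted p under 0.05. That test called 16.1% of all genes higher and 9.22% lower, 25.3% in either direction (2518 and 1443 genes, and 3188 and 444 without scaling factors). Egr2, Egr3, Klf2, Klf4 and Klf10 rose, and Egr1, Klf6, Nr4a1, Ier2 and Myc did not pass. The 10 had a median log2 fold change of 1.07, beside 0.10 for all genes. Without the cross-day pair 2 were called, Egr2 and Klf4, beside 5.80% of all genes called higher and 4.34% lower. Between days within isotype, 6 of the 10 were lower at POD2 than at POD1 and 0 were higher, where 19.7% of all genes were called lower, 32.3% in either direction (1980 genes higher and 3079 lower, and 584 and 6546 without scaling factors). These were the same 5 genes and Nr4a1, and the median was -1.41, beside -0.06 for all genes. Again 6 were called lower without the cross-day pair, Klf6 in place of Egr3, beside 16.6% of all genes. The antibody comparison at POD2 and the day comparison within isotype share the isotype POD2 samples, so they are not independent of each other.

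**Figure D2:**
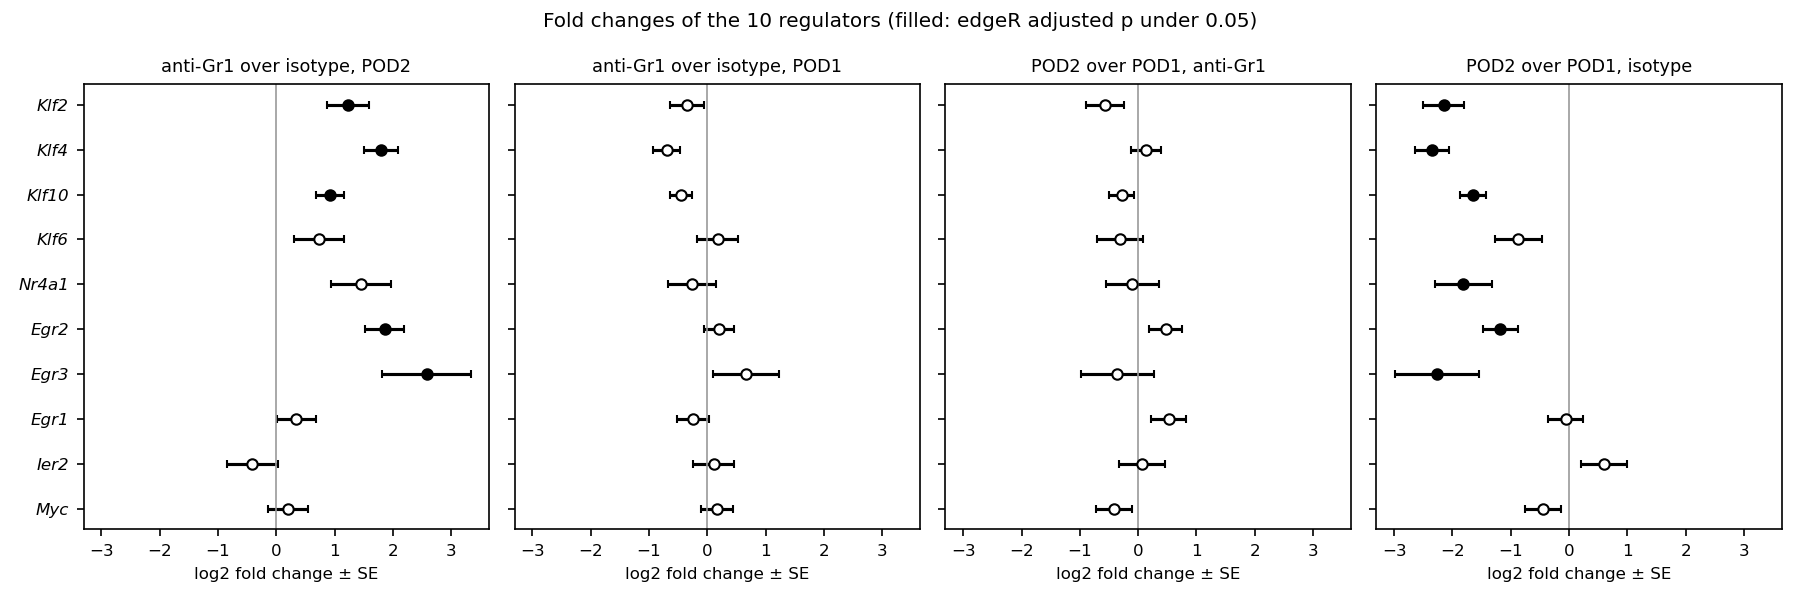
Points are log2 fold changes of the 10 regulators with their SE, in 4 comparisons, and filled points passed an edgeR adjusted p under 0.05. Filled points stand in the antibody comparison at POD2, where Klf4 was at 1.79, and in the day comparison within isotype, where it was at -2.35, and no point is filled in the other panels.

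Klf4 (ENSMUSG00000003032, chromosome 4, 55527143 to 55532466), which endothelium induces under laminar flow and monocytes need to differentiate, was the only one of the 10 that passed at POD2 under all 18 alternatives. It stood at 124, 117 and 88.5 CPM in the 3 anti-Gr1 POD2 libraries, against 38.5, 42.0 and 24.9 CPM in isotype POD2. It stood at 92.0, 119 and 80.2 CPM in anti-Gr1 POD1, against 137, 183 and 154 CPM in isotype POD1. The isotype groups thus held both the highest libraries, at POD1, and the lowest, at POD2, with no overlap with the libraries labelled anti-Gr1 of the same day. At POD2 Klf4 was 3.47-fold higher in anti-Gr1 (log2 fold change 1.79 ± 0.30 SE, edgeR adjusted p = 0.00504), with adjusted p of 6.55e-06 to 0.0472 under the alternatives. Within isotype it fell by 2.35 ± 0.29 on the log2 scale at POD2 relative to POD1 (adjusted p = 0.00145), also under all 18 alternatives. At POD1 its log2 fold change was -0.70 ± 0.24 in anti-Gr1 over isotype, which did not pass (adjusted p = 0.201). The antibody difference at POD2 exceeded that at POD1 by 2.49 ± 0.38 (interaction, adjusted p = 0.0173), a call that 5 of 17 alternatives ended. These left out isotype POD1 replicate 3 (0.054), isotype POD2 replicate 3 (0.0835), anti-Gr1 POD2 replicates 1 and 2 (0.0642), anti-Gr1 POD2 replicate 3 (0.0735) or the cross-day pair (0.0688).

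Klf2 (ENSMUSG00000055148, chromosome 8, 72319033 to 72321656), the flow-induced factor that keeps endothelium quiescent, stood at 397, 396 and 371 CPM in anti-Gr1 POD2, against 168, 167 and 187 CPM in isotype POD2. At POD1 it stood at 772, 626 and 355 CPM in anti-Gr1, against 611, 878 and 750 CPM in isotype. The isotype POD2 libraries lay below all others, and at POD1 the antibodies overlapped. Klf2 was 2.35-fold higher in anti-Gr1 at POD2 (log2 fold change 1.23 ± 0.36, edgeR adjusted p = 0.0361). That call was lost under 10 of the 18 alternatives, at adjusted p up to 0.154, namely without any single isotype sample, either anti-Gr1 POD2 sample, anti-Gr1 POD1 replicate 2 (0.0522), the cross-day pair (0.0599) or the acinar genes (0.054). Within isotype Klf2 fell by 2.15 ± 0.35 (adjusted p = 0.00323), which passed under all 18 alternatives, at up to 0.0373.

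Klf10 (ENSMUSG00000037465, chromosome 15, 38291463 to 38300706), a TGF-beta-inducible repressor, stood at 27.3, 26.4 and 27.6 CPM in anti-Gr1 POD2, against 16.2, 19.6 and 13.2 CPM in isotype POD2. In anti-Gr1 POD1 it stood at 32.5, 42.1 and 27.4 CPM, against 39.2, 51.6 and 48.9 CPM in isotype POD1. The isotype POD2 libraries were the lowest of the 12, and at POD1 only anti-Gr1 replicate 2 reached the isotype range. Klf10 was 1.89-fold higher in anti-Gr1 at POD2 (log2 fold change 0.92 ± 0.24, edgeR adjusted p = 0.0235), and the call was lost under 6 of 18 alternatives. These left out isotype POD1 replicate 1 (adjusted p = 0.0537), isotype POD1 replicate 3 (0.068), isotype POD2 replicate 3 (0.168), anti-Gr1 POD2 replicates 1 and 2 (0.0859), anti-Gr1 POD2 replicate 3 (0.111) or the cross-day pair (0.128). Within isotype it fell by 1.65 ± 0.23 (adjusted p = 0.00198), under all 18 alternatives too. The antibody difference at POD2 exceeded that at POD1 by 1.36 ± 0.30 (adjusted p = 0.0391), a call that 10 of 17 alternatives ended, at adjusted p up to 0.206. These left out the acinar genes, the cross-day pair or any single sample other than anti-Gr1 POD1 replicates 2 and 3.

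Klf6 (ENSMUSG00000000078, chromosome 13, 5861482 to 5870394), a broadly expressed injury-response factor, did not pass in any comparison as first fitted. It stood at 384, 388 and 209 CPM in anti-Gr1 POD2, against 161, 164 and 225 CPM in isotype POD2. It stood at 447, 480 and 209 CPM in anti-Gr1 POD1, against 339, 390 and 277 CPM in isotype POD1. The libraries of the cross-day pair, both at 209 CPM, were far below the others labelled anti-Gr1, and the groups overlapped on each day. Its log2 fold change was 0.74 ± 0.43 at POD2 (edgeR adjusted p = 0.24) and -0.87 ± 0.40 between days within isotype (adjusted p = 0.126). Within isotype it passed under 4 of 18 alternatives, without the cross-day pair (-0.79, adjusted p = 0.0393), without its POD1 member alone (-0.88, adjusted p = 0.0464), when the isotype groups were fitted alone (-0.84, adjusted p = 0.0198) and without scaling factors (-1.58, adjusted p = 0.0153).

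Egr2 (ENSMUSG00000037868, chromosome 10, 67535475 to 67542188) and Egr3 (ENSMUSG00000033730, chromosome 14, 70077203 to 70082614), which are induced by antigen and growth factor receptors, were the least abundant of the 10. Egr2 stood at 16.6, 16.8 and 14.8 CPM in anti-Gr1 POD2, against 4.57, 5.78 and 4.19 CPM in isotype POD2. At POD1 it stood at 8.42, 14.02 and 12.4 CPM in anti-Gr1, against 12.5, 10.7 and 7.18 CPM in isotype. The POD1 groups overlapped, the anti-Gr1 POD2 libraries were above them and the isotype POD2 libraries below. Egr2 was 3.62-fold higher in anti-Gr1 at POD2 (log2 fold change 1.86 ± 0.33, edgeR adjusted p = 0.00636), a call that ended under 1 of 18 alternatives, the one without isotype POD2 replicate 3 (1.72, adjusted p = 0.0647). Within isotype it fell by 1.18 ± 0.30 (adjusted p = 0.0199), which was lost without isotype POD1 replicate 1 (0.0734), isotype POD1 replicate 2 (0.0517), isotype POD2 replicates 1 and 2 (0.0655) or isotype POD2 replicate 3 (0.136). Between days within anti-Gr1 its log2 fold change was 0.47 ± 0.28 (adjusted p = 0.72).

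Egr3 stood at 11.0, 9.94 and 8.52 CPM in anti-Gr1 POD2, against 1.88, 2.63 and 0.985 CPM in isotype POD2. At POD1 it stood at 4.74, 23.5 and 8.93 CPM in anti-Gr1, against 9.92, 9.07 and 4.66 CPM in isotype. One library, anti-Gr1 POD1 replicate 2, was far above the others, and the isotype POD2 libraries were the lowest. Egr3 was 5.97-fold higher in anti-Gr1 at POD2 (log2 fold change 2.58 ± 0.76, edgeR adjusted p = 0.0386) and fell by 2.27 ± 0.72 between days within isotype (adjusted p = 0.0421). Each call was lost under 8 of 18 alternatives, with adjusted p up to 0.217 at POD2 and up to 0.215 within isotype, both without isotype POD2 replicate 3. The others left out the cross-day pair, any isotype sample or either anti-Gr1 POD2 sample.

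Egr1 (ENSMUSG00000038418, chromosome 18, 34859823 to 34864984), the most abundant Egr factor per kilobase in every group, did not pass in any comparison. It stood at 1019, 945 and 522 CPM in anti-Gr1 POD2, against 661, 650 and 633 CPM in isotype POD2. It stood at 474, 639 and 493 CPM in anti-Gr1 POD1, against 646, 689 and 571 CPM in isotype POD1. The near-identical anti-Gr1 POD2 replicates 1 and 2 were above all other libraries, and the isotype groups overlapped between days. Its log2 fold change was 0.34 ± 0.33 at POD2 (edgeR adjusted p = 0.484) and -0.06 ± 0.30 between days within isotype (adjusted p = 0.897). Whether Egr1 differed from Egr2 and Egr3 in its response was not tested.

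Nr4a1 (ENSMUSG00000023034, chromosome 15, 101254269 to 101274795), an orphan nuclear receptor induced in lymphocytes, macrophages and endothelium, stood at 240, 227 and 116 CPM in anti-Gr1 POD2, against 82.7, 78.6 and 57.8 CPM in isotype POD2. Its POD1 levels were 140, 322 and 114 CPM in anti-Gr1, against 247, 250 and 194 CPM in isotype. The groups did not overlap at POD2, and at POD1 the anti-Gr1 libraries spanned the isotype range. Its log2 fold change of 1.45 ± 0.51 at POD2 did not pass in edgeR (adjusted p = 0.0674), but it passed under 6 of 18 alternatives. These were DESeq2 (adjusted p = 0.0381), a fit of the POD2 groups alone (0.0208), near-identical libraries counted separately (0.0139), the same with a block for the replicate number (1.36, adjusted p = 0.00526), and edgeR without anti-Gr1 POD1 replicate 2 (0.0202) or without anti-Gr1 POD1 replicate 3 (0.0395). Within isotype it fell by 1.81 ± 0.49 (adjusted p = 0.023), which was lost without isotype POD1 replicate 1 (0.0668), isotype POD1 replicate 2 (0.0566), isotype POD2 replicates 1 and 2 (0.0737) or isotype POD2 replicate 3 (0.159).

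Ier2 (ENSMUSG00000053560, chromosome 8, 84661331 to 84662852), an early nuclear regulator of growth factor signalling, stood at 459, 480 and 266 CPM in anti-Gr1 POD2, against 433, 429 and 630 CPM in isotype POD2. At POD1 it stood at 536, 269 and 271 CPM in anti-Gr1, against 273, 420 and 307 CPM in isotype. The groups overlapped at both days, and the highest library, isotype POD2 replicate 3, also had the highest acinar share, at 26.7% of its counts; the part of that share in the Ier2 level was not tested. Its log2 fold change was -0.41 ± 0.44 in anti-Gr1 over isotype at POD2 (edgeR adjusted p = 0.519), with the opposite sign, 0.04, without scaling factors. Within isotype it was 0.59 ± 0.39 (adjusted p = 0.266), and -0.12 without scaling factors.

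Myc (ENSMUSG00000022346, chromosome 15, 61985391 to 61990374) stood at 64.3, 63.4 and 51.0 CPM in anti-Gr1 POD2, against 43.0, 40.9 and 66.9 CPM in isotype POD2. Its POD1 levels were 75.9, 109 and 50.5 CPM in anti-Gr1, against 68.8, 76.1 and 64.8 CPM in isotype. The groups overlapped on each day, and isotype POD2 replicate 3 was above the anti-Gr1 POD2 libraries. Its log2 fold change was 0.20 ± 0.34 at POD2 (edgeR adjusted p = 0.695) and -0.44 ± 0.31 within isotype (adjusted p = 0.294). Without scaling factors Myc passed within isotype (-1.17, adjusted p = 0.0214), as 1 of 8 regulators called lower under that setting.

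At POD1, 0 of the 10 regulators differed between anti-Gr1 and isotype in edgeR, where 0.735% of all genes were called. Klf4 and Klf10 were the 2 with an unadjusted p under 0.05, Klf10 at a log2 fold change of -0.45 ± 0.19, and DESeq2 called 0. The median of the 10 was -0.06, beside 0.01 for all genes. Between days within anti-Gr1, 0 regulators and 0% of all genes were called. There 770 genes had an unadjusted p under 0.05 in edgeR, none of the 10 among them, and DESeq2 called 0 genes. The regulators' log2 fold changes there ran from -0.57 ± 0.33 for Klf2 to 0.52 ± 0.30 for Egr1, with a median of -0.19, beside 0.00 for all genes. One of the samples on each side of that comparison belongs to the near-identical pair with different days. Of the interactions, 2 of the 10 passed, Klf4 and Klf10, where 3.51% of all genes were called higher, 2.10% lower and 5.60% in either direction. Egr2, at 1.65 ± 0.41 (adjusted p = 0.054), and Klf2, at 1.58 ± 0.46 (adjusted p = 0.0771), did not. Without the cross-day pair 0 of the 10 interactions passed, beside 0.0799% of all genes called higher.

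Markers of several cell types other than hepatocytes moved with the regulators. In bulk samples fewer cells of a type and less RNA per cell cannot be told apart. The counts below stand beside 16.1% of all genes called higher at POD2 and 19.7% lower within isotype. The 12 measured markers of sinusoidal endothelium summed to 4180 to 6551 CPM in anti-Gr1 POD2, against 1728 to 2305 CPM in isotype POD2. At POD1 they summed to 5443 to 7567 CPM in anti-Gr1, against 6796 to 8640 CPM in isotype. All 12 were higher in anti-Gr1 at POD2 (median log2 fold change 1.58), all 12 were lower in isotype POD2 than in isotype POD1 (-2.02), and 0 passed at POD1 (-0.29). With the cross-day pair left out 2 of the 12 passed at POD2 (median 1.19), and all 12 were still lower within isotype. Kupffer cell markers, 10 in all, summed to 4492 to 6680 CPM in anti-Gr1 POD2, against 1397 to 2018 CPM in isotype POD2, and to 6955 to 11667 CPM in anti-Gr1 POD1, against 6068 to 9662 CPM in isotype POD1. Of these, 8 rose in anti-Gr1 at POD2 (median 1.70), 9 fell between days within isotype (-2.34) and 0 passed at POD1. With that pair left out 2 of the 10 rose at POD2 (median 1.32), 9 fell within isotype and 1 fell at POD1. The 7 monocyte markers rose in anti-Gr1 at POD2 (2.44) and fell within isotype (-2.02), and 2 rose at POD1. Other lists moved less at POD2, where 3 of 9 T and NK cell, 1 of 10 stellate and 1 of 5 platelet markers rose, and 0 of 8 B and plasma cell, 0 of 7 erythroid, 0 of 6 cholangiocyte and 0 of 22 acinar markers passed. Within isotype 6 erythroid, 5 B and plasma cell, 4 T and NK cell, 2 platelet, 1 stellate and 1 cholangiocyte markers fell, and 0 acinar markers passed.

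The 14 neutrophil markers summed to 7911 to 8821 CPM in anti-Gr1 POD2, against 2127 to 2929 CPM in isotype POD2, and to 9079 to 12324 CPM in anti-Gr1 POD1, against 1527 to 1870 CPM in isotype POD1. Of these, 13 rose at POD2 and 9 at POD1, beside 16.1% and 0.607% of all genes called higher. Within isotype 10 of the 14 fell and 1 rose at POD2 relative to POD1 (median -2.87), so the sum, which was higher in isotype POD2, does not follow the single markers. The one that rose, named after its values were seen, was Lcn2 (1.22 ± 0.39, edgeR adjusted p = 0.0413), which hepatocytes also make in the acute phase. The 14 hepatocyte markers summed to 48513 to 67154 CPM in anti-Gr1 POD2, against 165284 to 168874 CPM in isotype POD2, and to 5644 to 68534 CPM in anti-Gr1 POD1, against 12832 to 22820 CPM in isotype POD1. The anti-Gr1 POD1 library at 68534 CPM belongs to the cross-day pair, and the other two, at 5644 and 9726 CPM, were below every isotype POD1 library. Of the hepatocyte markers, 6 rose between days within isotype, beside 12.7% of all genes. In either antibody comparison 0 passed, with medians of -0.85 at POD2 and 0.71 at POD1. With the cross-day pair left out their median was 3.005 within isotype and -1.20 at POD2, and at POD1 it turned to -1.18. All genes then had medians of 0.02, 0.03 and -0.01. None of the endothelial, Kupffer, monocyte, neutrophil or hepatocyte markers was at 0 in any library. The part of these cells in the regulators' differences was not tested.

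**Figure D3:**
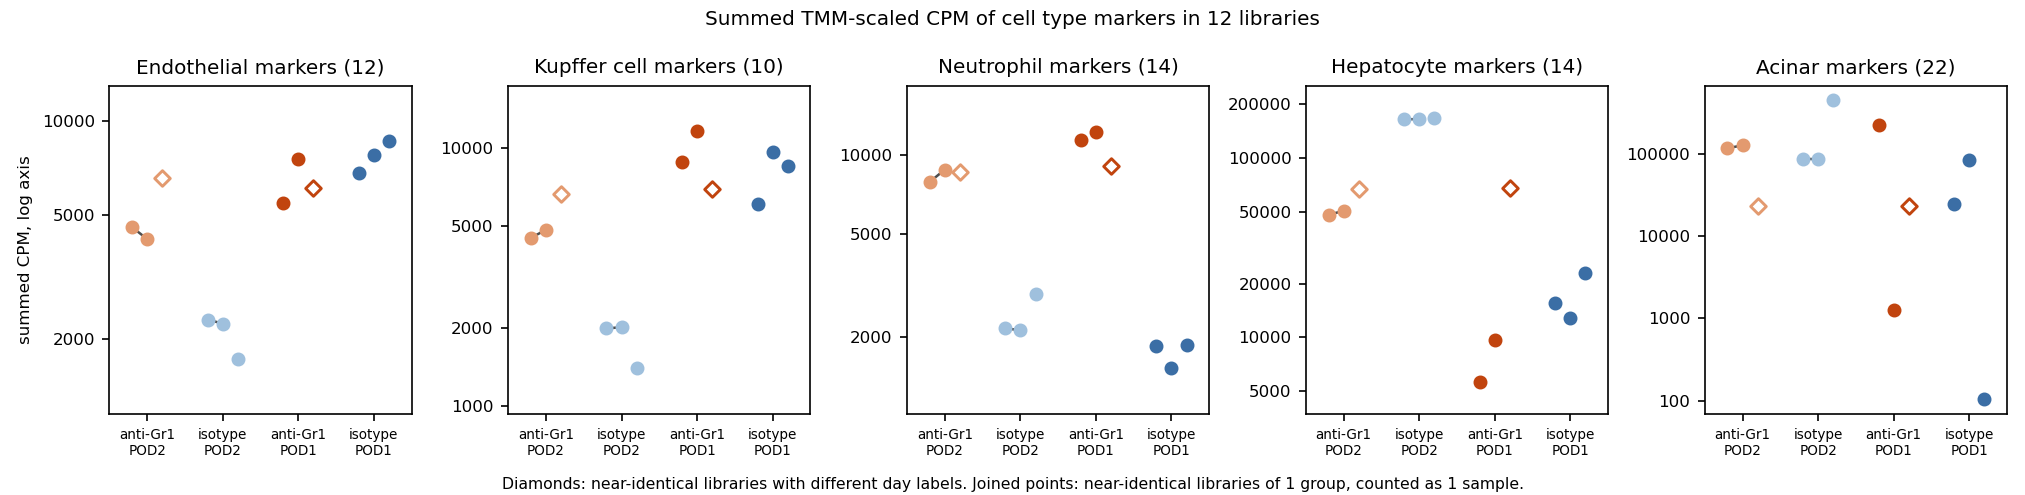
Each panel plots the summed TMM-scaled CPM of one marker list in 12 libraries, on a log axis, by antibody and day, with diamonds for the cross-day pair. Endothelial markers, at 1728 to 2305 CPM, and Kupffer cell markers, at 1397 to 2018 CPM, were lowest in the isotype POD2 libraries, while hepatocyte markers were highest there.

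Set against the summed endothelial marker CPM of the same library, the regulators fell into different patterns. Klf2 came to 5.67% to 9.47% of it in anti-Gr1 POD2, 7.31% to 10.8% in isotype POD2, 5.83% to 14.2% in anti-Gr1 POD1 and 8.68% to 11.3% in isotype POD1. Klf4 came to 1.35% to 2.80% in anti-Gr1 POD2, 1.44% to 1.88% in isotype POD2, 1.32% to 1.69% in anti-Gr1 POD1 and 1.79% to 2.35% in isotype POD1. For both, and for Nr4a1 at 1.77% to 5.44%, 3.34% to 3.59%, 1.88% to 4.26% and 2.25% to 3.64% in the same 4 groups, the ranges of isotype POD2 and isotype POD1 overlapped. Endothelial markers were not the only ones that followed these genes. Over the 10 samples, Pearson's r of log2 CPM with the mean endothelial marker was 0.874 for Klf2, 0.927 for Klf4 and 0.815 for Nr4a1. With the mean Kupffer cell marker it was 0.907, 0.923 and 0.861, and with the mean hepatocyte marker -0.890, -0.689 and -0.739.

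Klf10 came to 0.422% to 0.632% of the endothelial marker CPM in anti-Gr1 POD2, 0.704% to 0.876% in isotype POD2, 0.450% to 0.597% in anti-Gr1 POD1 and 0.566% to 0.662% in isotype POD1. Egr1 came to 7.97% to 22.6% in anti-Gr1 POD2, 28.7% to 36.6% in isotype POD2, 8.10% to 8.70% in anti-Gr1 POD1 and 6.61% to 9.51% in isotype POD1. Relative to these markers, Klf10, Egr1, Ier2 and Myc were thus higher in isotype POD2 than in every other group. The gap was narrow for Klf10, at 0.704% or more there and at most 0.662% elsewhere. Ier2 was at 18.8% to 36.5% there and at most 11.5% elsewhere, and Myc at 1.83% to 3.87% there and at most 1.52% elsewhere. The marker sum itself was lowest there, at 1728 to 2305 CPM, so a gene that fell less than the markers rises on this scale. In CPM, Klf10 was lowest in isotype POD2, and Egr1, Ier2 and Myc did not pass between days within isotype as first fitted. Over the 10 samples, r with the mean endothelial marker was 0.940 for Klf10, -0.082 for Egr1, -0.668 for Ier2 and 0.476 for Myc. Egr2 came to 0.226% to 0.402% in anti-Gr1 POD2, 0.198% to 0.258% in isotype POD2, 0.155% to 0.203% in anti-Gr1 POD1 and 0.0831% to 0.184% in isotype POD1. Klf6 came to 3.19% to 9.27% in anti-Gr1 POD2, 6.99% to 13.01% in isotype POD2, 3.44% to 8.22% in anti-Gr1 POD1 and 3.21% to 5.00% in isotype POD1. On this scale Egr2 and Klf6 were thus higher in isotype POD2 than in isotype POD1 without overlap, while the CPM of Egr2 fell between those groups. Egr3 came to 0.130% to 0.240% in anti-Gr1 POD2, 0.0570% to 0.117% in isotype POD2, 0.0871% to 0.311% in anti-Gr1 POD1 and 0.0540% to 0.146% in isotype POD1, and the isotype groups overlapped. These ratios are descriptions of 12 libraries with no test, and they do not assign a transcript to a cell type.

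**Figure D4:**
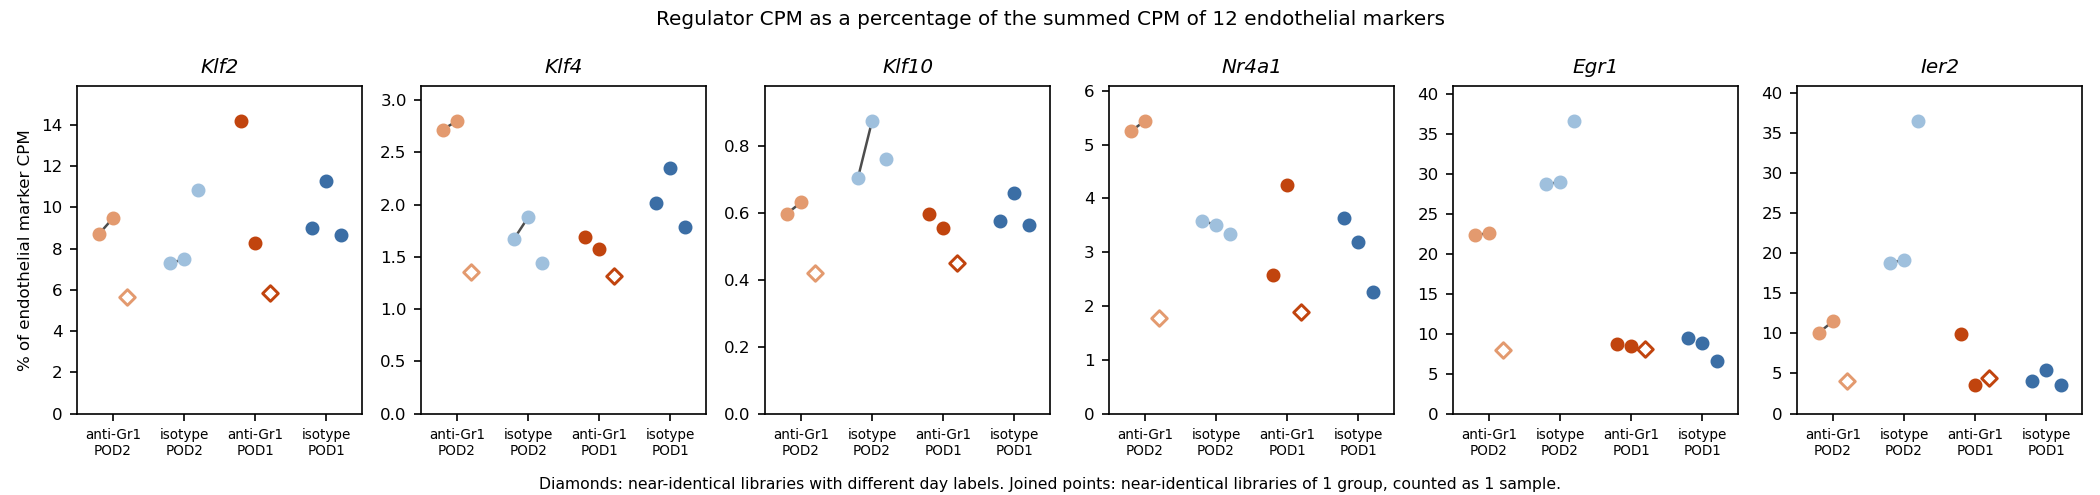
Each panel plots one regulator's CPM as a percentage of the summed CPM of 12 endothelial markers in the same library, on an axis from 0, by antibody and day, with diamonds for the cross-day pair. Klf2, Klf4 and Nr4a1 overlap between isotype POD2 and isotype POD1, and Egr1 lies at 28.7% to 36.6% in isotype POD2 against 6.61% to 9.51% in isotype POD1. The CPM of Egr1 overlapped between those groups, and the marker sum was lowest in isotype POD2.

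Heat shock genes, which tissue handling can induce, were measured beside the regulators. Of 11 genes, 1 rose and 2 fell in anti-Gr1 at POD2, with a median of 0.13 beside 0.10 for all genes. There 16.1% of all genes were called higher and 9.22% lower. Within isotype 2 rose and 3 fell at POD2 relative to POD1, with a median of -0.50, beside 12.7% and 19.7% of all genes. The inducible chaperone gene Hspa1b was higher in anti-Gr1 POD2, at 47.4 ± 5.69 CPM, against 8.26 ± 0.852 CPM in isotype POD2 (SD, n = 2 each; log2 fold change 2.64 ± 0.83, edgeR adjusted p = 0.0478), a call lost without the acinar genes (2.53, adjusted p = 0.0577) or without the cross-day pair (2.40, adjusted p = 0.149). Hspa1b and its neighbour Hspa1a, near-identical copies whose reads may be shared, fell within isotype by 3.68 ± 0.83 (adjusted p = 0.0123) and 3.13 ± 0.71 (adjusted p = 0.0126). The mitochondrial chaperone genes Hspd1 and Hspe1 moved the other way, falling in anti-Gr1 at POD2 by 0.89 ± 0.27 (adjusted p = 0.0415) and 1.15 ± 0.23 (adjusted p = 0.00934). The Hspd1 call at POD2 was lost without the cross-day pair (-0.90, adjusted p = 0.0532) or without scaling factors (-0.46, adjusted p = 0.291). Within isotype Hspd1 rose by 0.96 ± 0.24 and Hspe1 by 0.76 ± 0.20, both calls lost without scaling factors. The part of heat shock induction in the regulators' levels was not tested.

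Upstream of the regulators, the list of SRF, ternary complex factors and ERK pathway kinases held 16 genes. Among them 3 rose and 1 fell in anti-Gr1 at POD2 and 7 fell within isotype, with medians of 0.49 and -0.43. Shares of all genes were 16.1% called higher and 9.22% lower at POD2, and 19.7% lower within isotype. Elk3, an endothelial ternary complex factor, stood at 126 ± 26.3 CPM in anti-Gr1 POD2, against 51.0 ± 14.5 CPM in isotype POD2 (SD, n = 2 each; log2 fold change 1.41 ± 0.27, edgeR adjusted p = 0.00836). The SRF coactivator gene Mkl1 rose by 1.04 ± 0.22 (adjusted p = 0.0126) and the ERK-activated kinase gene Rps6ka3 by 1.396 ± 0.378 (adjusted p = 0.0284). Map2k2, which encodes the kinase MEK2, fell by 0.89 ± 0.22 (adjusted p = 0.0217), and its call was lost without scaling factors (-0.45, adjusted p = 0.189). At POD2 0 of the 16 passed without the cross-day pair. Within isotype Elk3 fell by 1.62 ± 0.26 (adjusted p = 0.00298), and Rps6ka1, Rps6ka3 and Elk1 fell by 0.78 to 1.25.

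Of 18 tested relatives of the regulators, 5 rose and 0 fell in anti-Gr1 at POD2, with a median of 0.83, and within isotype 9 fell and 1 rose, with a median of -0.99. All genes had medians of 0.10 and -0.06, with 16.1% called higher at POD2 and 19.7% lower within isotype. Klf7 stood at 29.1 ± 4.05 CPM in anti-Gr1 POD2, against 10.5 ± 2.33 CPM in isotype POD2 (SD, n = 2 each; log2 fold change 1.57 ± 0.31, edgeR adjusted p = 0.00903). Klf5 rose by 1.43 ± 0.42, Klf3 by 0.85 ± 0.25 and Klf13 by 0.87 ± 0.26. Within isotype the smallest p-values were those of Ier5 (-1.65 ± 0.27, adjusted p = 0.00343), Ier5l (-1.62 ± 0.32), Klf7 (-1.25 ± 0.29) and the apoptosis regulator gene Ier3 (-2.11 ± 0.51). At POD1 0 of the 18 passed, and Klf5 had the smallest p (1.63 ± 0.35, adjusted p = 0.0772). When the cross-day pair was left out, 0 relatives passed at POD2, and 7 fell and 1 rose within isotype.

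Of 31 other immediate early genes, 5 rose and 0 fell in anti-Gr1 at POD2, with a median of 0.45, and 11 fell and 0 rose within isotype, with a median of -0.67. The test called 16.1% of all genes higher at POD2, near the share in this list, and 19.7% lower within isotype. Medians of all genes were 0.10 and -0.06. Several of the 31 encode feedback phosphatases of MAP kinases. Dusp2 stood at 18.9 ± 1.10 CPM in anti-Gr1 POD2, against 5.19 ± 1.196 CPM in isotype POD2 (SD, n = 2 each; log2 fold change 2.00 ± 0.52, edgeR adjusted p = 0.0252). Fosl2, an AP-1 subunit gene, rose by 1.56 ± 0.43, Dusp5 by 1.00 ± 0.30 and Ctgf, a matricellular protein gene, by 2.06 ± 0.61. Dusp1 fell within isotype by 2.18 ± 0.39 (adjusted p = 0.00459), Csrnp1 by 1.47 ± 0.29, Dusp5 by 1.32 ± 0.28 and Dusp2 by 2.14 ± 0.50. At POD2 2 of the 31 passed without the cross-day pair.

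Downstream, 3 of 10 Egr corepressors and targets rose in anti-Gr1 at POD2 and 0 fell, with a median of 0.74, and within isotype 2 fell and 1 rose, with a median of -0.64. Beside these, 16.1% of all genes were called higher at POD2, and 19.7% lower within isotype. Pdgfb, an endothelial growth factor gene, stood at 28.7 ± 5.32 CPM in anti-Gr1 POD2, against 8.39 ± 0.144 CPM in isotype POD2 (SD, n = 2 each; log2 fold change 1.89 ± 0.30, edgeR adjusted p = 0.00477). Tgfb1 rose by 1.45 ± 0.30 (adjusted p = 0.0112) and the adhesion molecule gene Icam1 by 1.29 ± 0.38 (adjusted p = 0.0366). At POD2 1 of the 10 passed without the cross-day pair. Within isotype Tgfb1 fell by 1.81 ± 0.29 and Pdgfb by 1.53 ± 0.28, while Nab2, an Egr corepressor gene that Egr proteins induce, rose by 0.58 ± 0.14 (adjusted p = 0.0141) and stood at -0.11 without scaling factors.

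Of the 5 endothelial targets of Klf2 and Klf4, 3 rose in anti-Gr1 at POD2 and the same 3 fell within isotype, with medians of 1.48 and -2.28. All 12 endothelial markers moved the same ways, with medians of 1.58 and -2.02. Over all genes 16.1% were called higher at POD2 and 19.7% lower within isotype. Whether the targets moved apart from the endothelial markers was not tested. Tek, the angiopoietin receptor gene, stood at 238 ± 72.8 CPM in anti-Gr1 POD2, against 57.8 ± 23.1 CPM in isotype POD2 (SD, n = 2 each; log2 fold change 2.15 ± 0.36, edgeR adjusted p = 0.00518). Thbd, thrombomodulin, stood at 231 ± 13.1 CPM in anti-Gr1 POD2, against 52.8 ± 10.2 CPM in isotype POD2 (2.24 ± 0.57, adjusted p = 0.0223). Nos3, endothelial nitric oxide synthase, rose by 1.48 ± 0.45 (adjusted p = 0.0435). Within isotype Tek fell by 2.28 ± 0.34, Thbd fell by 3.31 ± 0.57 and Nos3 by 2.44 ± 0.45. Tek and Thbd passed at POD2 without the cross-day pair, and Nos3 did not.

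Around Myc, 5 of 10 partners and antagonists rose and 1 fell in anti-Gr1 at POD2, with a median of 0.60, and within isotype 4 fell and 1 rose, with a median of -0.46. For all genes the shares were 16.1% higher and 9.22% lower at POD2, and 19.7% lower within isotype. Mxd3, a Myc antagonist gene transcribed in S phase of cycling cells, stood at 2.49 to 2.68 CPM in the anti-Gr1 POD2 libraries, against 30.5 to 38.2 CPM in isotype POD2. It stood at 1.60 to 3.00 CPM in anti-Gr1 POD1, against 2.57 to 2.70 CPM in isotype POD1. The 3 isotype POD2 libraries were thus apart from the other 9, with a log2 fold change of -3.66 ± 0.30 in anti-Gr1 over isotype at POD2 (edgeR adjusted p = 0.00102) and of 3.64 ± 0.26 between days within isotype (adjusted p = 0.000418). The antagonist genes Mxd1 and Mxd4 moved the opposite way at POD2, by 2.80 ± 0.47 (adjusted p = 0.00518) and 1.27 ± 0.22 (adjusted p = 0.00562). Max rose too, by 0.97 ± 0.19 (adjusted p = 0.00929), and 7 of the 10 had a log2 fold change above 0. Mxd1, an antagonist gene of differentiating myeloid cells, stood at 93.2 ± 12.3 CPM in anti-Gr1 POD2, against 14.4 ± 3.42 CPM in isotype POD2 (SD, n = 2 each). Without the cross-day pair 2 of the 10 rose and 1 fell at POD2. The interaction passed for Mxd3, at -3.45 ± 0.37 (adjusted p = 0.0111), and for Mxd4, at 1.21 ± 0.28 (adjusted p = 0.0428).

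Of 25 Myc-induced genes of ribosome and nucleotide synthesis, 0 rose and 5 fell in anti-Gr1 at POD2, where 9.22% of all genes were called lower. Their median was -0.34 beside 0.10 for all genes, while Myc itself did not pass. The nucleolar protein gene Nop58 stood at 34.5 ± 1.58 CPM in anti-Gr1 POD2, against 78.5 ± 9.87 CPM in isotype POD2 (SD, n = 2 each; log2 fold change -1.06 ± 0.20, edgeR adjusted p = 0.00836), and Nop16 fell by 0.91 ± 0.18 (adjusted p = 0.00942). Within isotype 3 of the 25 rose and 1 fell, with a median of 0.24, beside 12.7% and 19.7% of all genes. Both medians change sign without scaling factors, to 0.11 at POD2 and -0.45 within isotype, where 0 rose and 8 fell. Under that setting all genes had medians of 0.51 and -0.73, and 6546 of 15647 were called lower within isotype. The count lower at POD2 was 1 without scaling factors, 8 without the acinar genes and 9 in DESeq2, beside 444, 1845 and 2141 of all genes. Without the cross-day pair the median at POD2 was -0.37, beside 0.03 for all genes.

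The genes most like each regulator were ranked by Pearson's r of log2 CPM over the 10 samples among 14082 protein-coding genes, a description in which the samples share their groups and scaling. Klf4 was most like Rhoj, an endothelial GTPase gene (r = 0.985), and Klf2 most like Sirt2 (0.984). Klf10 was most like P2ry12, the Kupffer cell receptor gene Vsig4 and Ptgs1, all at 0.985. Egr3 was most like Rel, an NF-kB subunit gene (0.987), Egr2 most like Zmym2 (0.974) and Nr4a1 most like Klhl29 (0.970), followed by Dusp5 (0.964). Egr1 was most like the AP-1 subunit gene Fosb (0.957), with the next gene, Slc24a3, at 0.855. Klf6 (0.972) and Myc (0.958) had the same nearest gene, Camkk1, and Ier2 was most like Cldn9 (0.974).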

How the data were processed

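RNA-seq libraries of 12 samples labelled as hepatocytes, in 4 groups, were analysed from the table of raw counts per gene that the authors deposited. Per the submitters' processing notes, cutadapt, STAR, HTSeq and DESeq2 were used with GRCm38; their versions, the annotation and the strand setting are not given there. All 12 columns were matched to samples by name. Gene positions and exon lengths came from GENCODE release M21 (GRCm38), which held 18208 of the 18227 identifiers.

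Libraries of one group with a chi-square per gene under 10 were summed, leaving 10 samples. Counts were tested in R 4.3.3 with edgeR 4.0.16 (limma 3.58.1), using filterByExpr, TMM factors, robust quasi-likelihood F tests with all 4 groups in one fit (6 residual degrees of freedom) and Benjamini-Hochberg adjustment over 15647 genes at 0.05. The SE of a log2 fold change was its size divided by the square root of F. CPM used TMM factors of the 12 libraries, and log2 CPM a prior count of 1. Means and SDs average near-identical libraries first. The fit was tested on simulated data.

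Alternatives counted near-identical libraries separately, left out the cross-day pair, acinar genes or one sample at a time, used no scaling, no filter, DESeq2 1.42.0, only the groups compared, or a block for the replicate number. The design, the 10 regulators, the gene lists and the markers were chosen with earlier results of these data known. Named genes are the 10 regulators, up to 4 called genes of each list per comparison by p (up to 2 where none passed), the 3 genes most alike by correlation, and Ly6g.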

Additional observations from a re-analysis of the deposited data

Results flagged for a closer look

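The antibody difference was called as changed between days for 2 of the 10 regulators, by edgeR's interaction test, which called 5.60% of all genes. Of 17 alternatives, 5 ended the Klf4 call and 10 ended the Klf10 call. For Klf4 the log2 difference between the libraries labelled anti-Gr1 and isotype was 2.49 ± 0.38 larger at POD2 than at POD1 (adjusted p = 0.0173), with 1.79 at POD2 and -0.70 at POD1. For Klf10 it was 1.36 ± 0.30 larger (adjusted p = 0.0391), with 0.92 at POD2 and -0.45 at POD1. The libraries of the cross-day pair stand on the anti-Gr1 side of both days, and without them neither passed, at adjusted p = 0.0688 for Klf4 and 0.206 for Klf10.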

How the results depend on the processing

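Each comparison was recomputed under up to 18 alternatives. Without one sample at a time, genes called ranged from 21 to 1361 for antibody at POD1 (115 as reported), 806 to 4843 at POD2 (3961), 1587 to 6290 between days within isotype (5059), 0 to 1149 within anti-Gr1 (0) and 0 to 2257 for the interaction (877). Regulators called ranged from 1 to 6 at POD2 (5), 3 to 7 within isotype (6) and 0 to 5 for the interaction (2), and stayed at 0 in the other comparisons. Without the cross-day pair 793, 1650, 545 and 76 genes were called for POD1, POD2, within anti-Gr1 and the interaction, with 2 regulators at POD2 and 0 for the interaction. With near-identical libraries counted separately 528, 6404 and 2539 genes were called for POD1, POD2 and the interaction, with 4 regulators for the interaction. DESeq2 called 785 genes at POD1 (524 higher, 261 lower) and 1933 for the interaction, with 4 regulators for the interaction, and split POD2 into 2446 higher and 2141 lower. A fit of the 2 POD1 groups alone called 52 genes.

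Without scaling factors 70 genes were called at POD1 (50 higher, 20 lower) and 4 regulators for the interaction. That setting shifted the median of all genes by -0.15 at POD1, 0.41 at POD2, -0.68 within isotype, -0.11 within anti-Gr1 and 0.56 for the interaction, which it split into 1143 higher and 128 lower (549 and 328 as reported). Removing the acinar genes left 1 regulator for the interaction, shifted the POD2 and interaction medians by -0.11 each, and split POD2 into 2022 higher and 1845 lower and the interaction into 299 and 350.

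Deviations of same-numbered libraries from their group means correlated at -0.26 to 0.36, and the numbers were not taken as pairs. That check cannot exclude pairing, since the near-identical cross-day pair, both replicate 3, reached only 0.237 in it. A block for the replicate number, with libraries counted separately, called 298 genes at POD1, 5980 at POD2 and 2013 for the interaction, with 5 regulators for the interaction. Under the block Egr1 within isotype was 0.037 and Nr4a1 within anti-Gr1 0.059, both of opposite sign to the values reported.

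No regulator that passed changed direction under any alternative. Signs changed for values that had not passed. Ier2 without scaling was -0.052 at POD1, 0.044 at POD2, -0.12 within isotype, -0.021 within anti-Gr1 and 0.096 for the interaction. Without the cross-day pair Nr4a1 was 0.008 at POD1 and 0.016 within anti-Gr1, Egr1 0.027 within isotype and Myc -0.17 for the interaction. Counted separately, Egr1 was 0.028 within isotype and Nr4a1 0.017 within anti-Gr1. Without acinar genes Egr1 was 0.024 within isotype and Myc -0.082 for the interaction, and in DESeq2 Myc was -0.090. Without one sample at a time, POD1 values spanned -0.29 to 0.30 for Ier2, 0.00 to 0.39 for Egr2, -0.20 to 1.05 for Egr3, -0.031 to 0.46 for Klf6 and -0.14 to 0.39 for Myc. POD2 values spanned -0.097 to 0.56 for Myc and -0.19 to 0.72 for Egr1, and Egr1 within isotype -0.086 to 0.032. Within anti-Gr1 they spanned -0.74 to 0.47 for Egr3, -0.69 to 0.46 for Nr4a1, -0.40 to 0.47 for Ier2, -0.004 to 0.91 for Egr1, -0.10 to 0.34 for Klf4 and -0.82 to 0.066 for Klf6, and for the Myc interaction -0.27 to 0.40. The causes were not tested. Leaving out a POD2 sample leaves 1 in its group, as leaving out the cross-day pair does in anti-Gr1 POD2. That sample is assumed to vary like the others. Egr3, at 8 to 455 counts per library, is the gene most limited by depth.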
